A study of Mus musculus with 18 samples.

Results

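The genes described here are 9 that mark the GABAergic interneuron lineage: the homeobox genes Dlx1, Dlx2, Dlx5 and Dlx6, the zinc finger genes Sp8 and Sp9, and the GABA genes Gad1, Gad2 and Slc32a1. They were chosen by name. Each was read from the probe set that carries its symbol alone, and where there were several such probe sets the one with the highest mean over all arrays was used. By this rule 8 of the 9 genes could be read, out of 22180 genes on the array, and all 8 were among the 19016 genes bright enough to be tested. Dlx1 had no probe set of its own, because its probe set is also annotated to the antisense transcript Dlx1as, and no value is given for it.

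RNA came from cultured mouse neurospheres, floating clusters of neural stem and progenitor cells, labelled as female, and was measured on 18 Affymetrix mouse gene arrays. A culture was either wild type, a knockout of Pcdh19, or a mosaic in which cells of these genotypes were mixed, and each kind was taken at day 0 as neurospheres and at day 4 of differentiation. Pcdh19 lies on the X chromosome and encodes a protocadherin, a cell adhesion protein. There were 3 arrays in each of the 6 groups, and the design text calls the replicates technical, so every p-value here measures only the spread between these arrays. The labels do not say which part of Pcdh19 was deleted, how many animals gave the cells, or in what proportion the mosaic was mixed.

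Pcdh19 itself measured 6.66 to 6.98 (log2 signal) on the 6 wild type arrays and 5.39 to 5.86 on the 6 knockout arrays. The mosaic measured 5.65 to 6.31 at day 0. At day 4 its replicates 1, 2 and 3 measured 6.54, 7.09 and 5.52, so replicate 2 lay above every wild type array and replicate 3 within the range of the knockout arrays. The mosaic changes of the genes described here, and their largest mosaic differences from wild type, are therefore also given without these arrays. Every knockout array thus lay below every wild type array. Whether the probe set lies in the deleted part is not known, and how far its level reflects the mix on a mosaic array was not tested.

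All values are log2 signals as the authors deposited them, and their log base is taken to be 2. The array medians were 4.85 to 4.99. Only Dlx2 and Gad1 were above the median of their array on all 18 arrays. Sp8 was above it on 17, Gad2 on 15, Slc32a1 on 13, Dlx5 on 7, Dlx6 on 3 and Sp9 on 1, and all 8 genes lay above the 25th percentile on every array. No detection call was at hand. Levels of different probe sets are not compared with each other here, since each probe set has its own response. In a mixed culture, fewer cells of a type and less RNA per cell cannot be told apart.

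In the embryonic forebrain, DLX proteins are made in the ganglionic eminences, the ventral source of cortical interneurons. Dlx1 and Dlx2 act in progenitors and switch on Dlx5 and Dlx6, and together they favour the GABAergic over the glutamatergic and the oligodendrocyte fate. The genes lie in pairs that share enhancers: Dlx1 beside Dlx2 on chromosome 2, and Dlx5 beside Dlx6 on chromosome 6, where the long noncoding RNA Dlx6os1 overlaps Dlx6. Sp8 (chromosome 12) and Sp9 (chromosome 2) encode zinc finger factors of interneuron progenitors, in particular those bound for the olfactory bulb. Gad1 and Gad2 encode the enzymes that make GABA from glutamate, and Slc32a1 encodes VGAT, which loads GABA into synaptic vesicles. These 3 genes are also on chromosome 2.

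Upstream sequence is printed here for some of the transcription factor genes of the set. The stretches below, from RefSeq (GRCm38.p6), end at the outermost annotated start. Dlx2, Sp8 and Sp9 are shown because their upstream windows left a long enough stretch before that start. They were not chosen by how they changed. Capitals mark matches to GGGCGG or its reverse complement CCGCCC (the GC box bound by SP factors), TATAAA or TTTATA (the TATA box), TAATTA (a homeodomain core, its own reverse complement) and CAGCTG (an E-box, its own reverse complement). No match overlapped another in these stretches.
Dlx2 upstream, chr2:71546755-71547004, minus strand: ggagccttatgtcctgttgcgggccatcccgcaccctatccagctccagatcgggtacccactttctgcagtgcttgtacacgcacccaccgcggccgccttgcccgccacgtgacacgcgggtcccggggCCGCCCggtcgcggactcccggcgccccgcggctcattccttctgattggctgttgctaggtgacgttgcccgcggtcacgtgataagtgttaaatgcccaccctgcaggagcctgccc
Sp9 upstream, chr2:73271676-73271925, plus strand: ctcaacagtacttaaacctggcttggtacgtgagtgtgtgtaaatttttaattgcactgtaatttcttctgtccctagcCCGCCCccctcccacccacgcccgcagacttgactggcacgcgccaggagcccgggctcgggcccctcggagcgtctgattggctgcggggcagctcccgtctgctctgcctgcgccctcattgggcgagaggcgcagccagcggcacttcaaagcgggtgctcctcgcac
Sp8 upstream, chr12:118846079-118846287, plus strand: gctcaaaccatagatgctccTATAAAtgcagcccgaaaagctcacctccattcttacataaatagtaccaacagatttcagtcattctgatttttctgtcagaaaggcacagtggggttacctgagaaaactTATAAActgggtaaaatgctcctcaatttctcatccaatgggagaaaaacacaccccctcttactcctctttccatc

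The Dlx2 and Sp9 stretches were rich in G and C (66.4% and 62.4%) and each held 1 GC box. The Sp8 stretch of 209 bases was 41.1% G and C and held 2 TATA boxes and 0 GC boxes. Over 32851 upstream windows of 250 bases in the same RefSeq table the median was 52.4% G and C, and 32.7% held a GC box, 12.4% a TATA box, 4.84% the homeodomain core and 13% the E-box. Sp8 has other annotated starts, so the printed stretch does not stand for the whole gene. Its window from chr12:118846983 was 67.2% G and C, with 1 GC box and 0 TATA boxes. The one from chr12:118847309 was 50% G and C, with 1 homeodomain core and 0 GC boxes. The Dlx1 window, not printed, was 68% G and C with 0 GC boxes. Among the other windows not printed, that of Gad1 held 1 GC box and 1 TATA box. Those of Gad2 and Slc32a1 held 0 GC boxes and 0 TATA boxes. Of the 9 genes, 7 had entries in the table. These matches describe letters only.

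The first question was how the genes moved as neurospheres differentiated, by comparing day 4 with day 0 in each genotype. In wild type cultures 6 of the 8 genes rose (Dlx2, Dlx5, Dlx6, Gad1, Gad2 and Slc32a1), 0 fell and 2, Sp8 and Sp9, did not pass. Calls were made at an adjusted p under 0.05 in limma over all 19016 genes, of which 33.6% were called in that comparison, 17.2% higher and 16.3% lower. The median change of the 8 genes was 0.5 on the log2 scale, against 0.09 over all genes. In knockout cultures 5 rose and 1, Sp8, fell, where 27.4% of all genes were called, 15% higher and 12.4% lower. In mosaic cultures 2 rose, Dlx2 and Dlx5, where 26.2% of all genes were called, 14.4% higher and 11.9% lower. The medians there were 0.44 and 0.22, against 0.02 over all genes in both. In wild type cultures the day 4 arrays lay entirely above the day 0 arrays for 6 of the 8 genes and entirely below for 0, against 27.1% and 21.9% of all genes. In knockout cultures this held for 4 and 2 genes, against 22.1% and 17.1%, and in mosaic cultures for 2 and 1, against 20.3% and 17.8%. The knockout count was 3 (Dlx2, Dlx5 and Gad2) without knockout day 4 replicate 1. The mosaic count was 1 (Dlx2) without mosaic day 0 replicate 2 or 3 or day 4 replicate 1 or 2, and 2 without day 4 replicate 3.

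**Figure D1:**
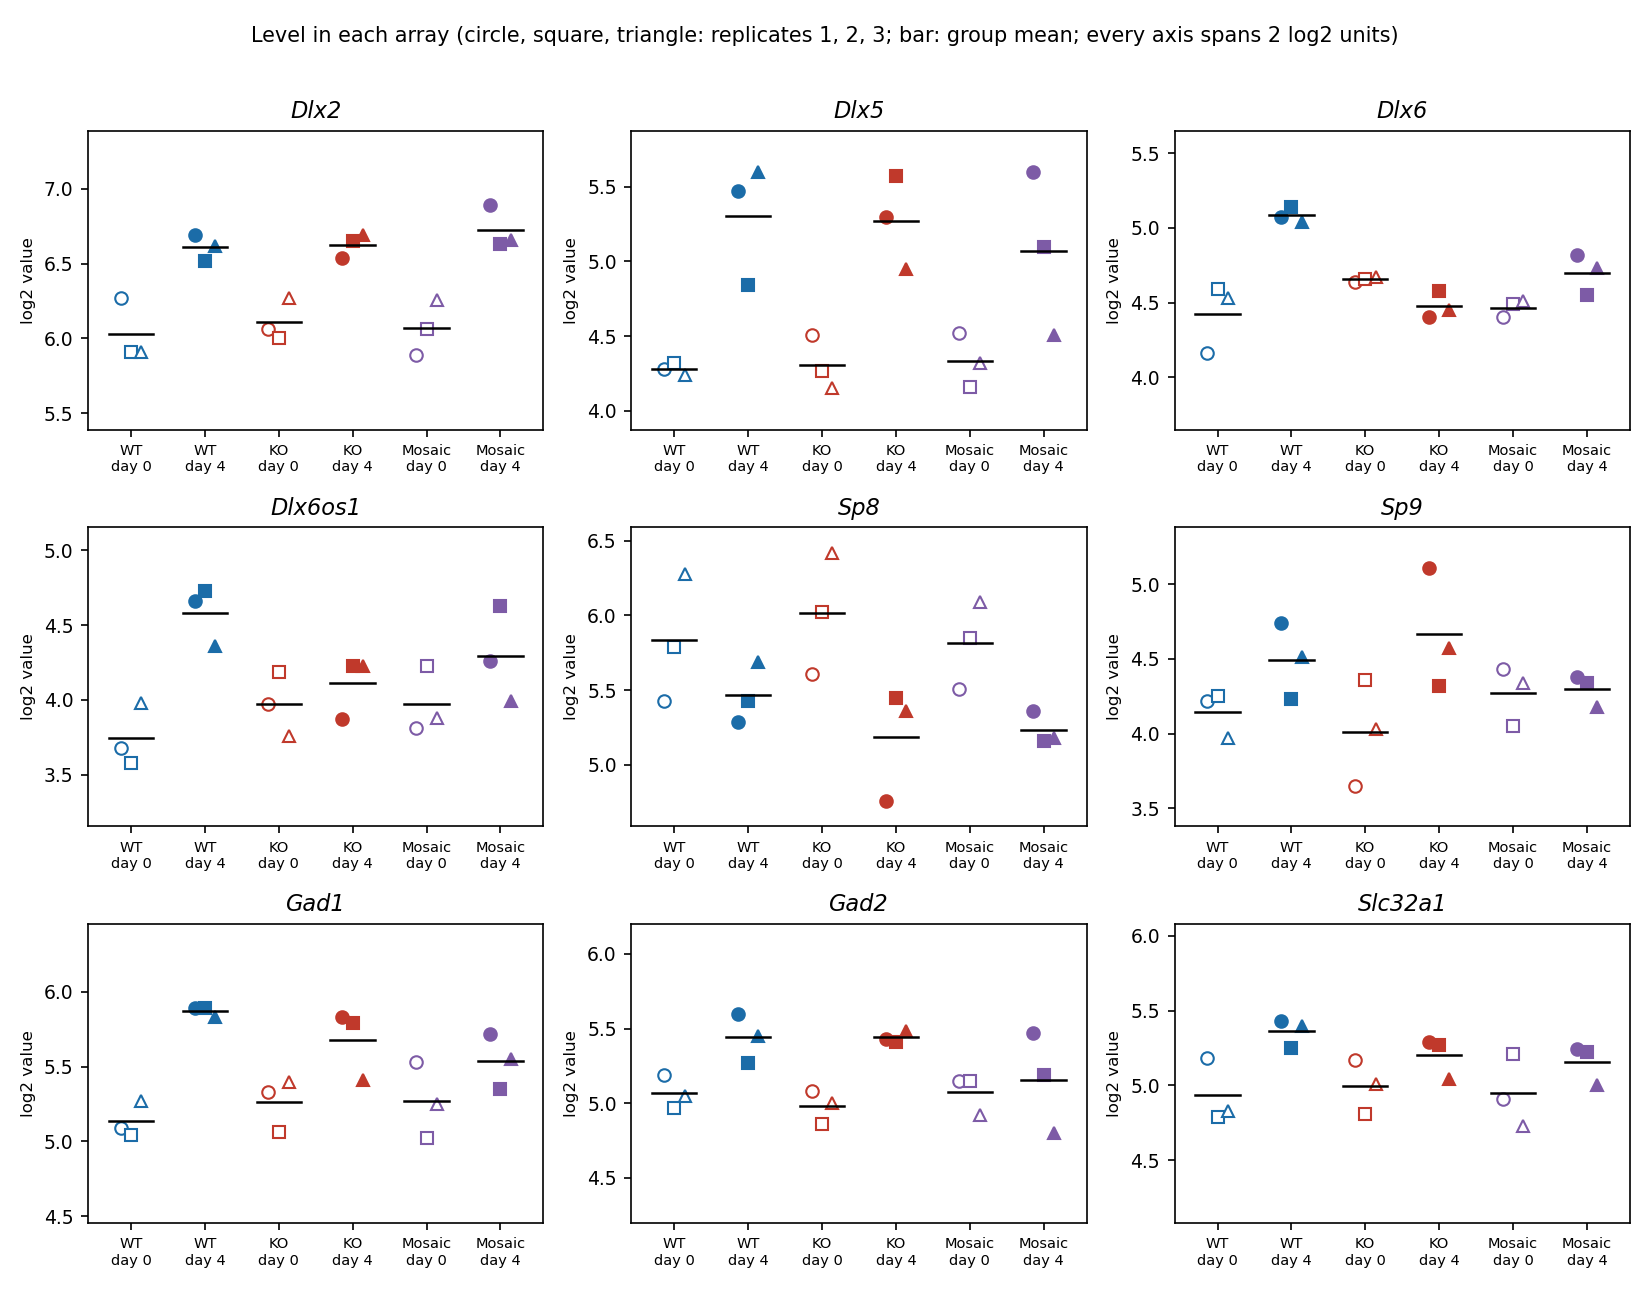
Log2 signal of the 8 measured genes and of Dlx6os1 on each of the 18 arrays, with 1 panel per gene, 1 point per array (open at day 0, filled at day 4) and a bar at each group mean. Dlx2 separated the days in every genotype, whereas the day 4 arrays of Dlx6 were highest in wild type cultures (5.04 to 5.14), and those of knockout (4.4 to 4.58) and mosaic (4.55 to 4.82) overlapped.

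Dlx2 rose on differentiation in all 3 genotypes. Its wild type arrays measured 6.27, 5.91 and 5.91 at day 0 and 6.69, 6.52 and 6.62 at day 4. Its knockout arrays measured 6.06, 6.0 and 6.27, then 6.54, 6.65 and 6.69. Its mosaic arrays measured 5.89, 6.06 and 6.26, then 6.89, 6.63 and 6.66. Every day 4 array lay above every day 0 array, also between genotypes, and within a day the genotypes overlapped. The change was 0.58 ± 0.12 (SE, log2, n = 3 per group, limma adjusted p = 0.00134) in wild type, a 1.5-fold rise. It was 0.52 ± 0.12 (limma adjusted p = 0.00338) in knockout and 0.66 ± 0.12 (limma adjusted p = 0.000491) in mosaic cultures, where it was 0.71 and 0.69 without day 4 replicate 2 and 3. The ordering of the 6 group means put the 3 day 4 groups first (6.72, 6.63 and 6.61 in mosaic, knockout and wild type) and neighbours within a day did not differ beyond their spread.

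Dlx5, a target of DLX2 that acts as interneuron precursors leave the cell cycle, had the highest log2 change of the 8 genes in every genotype. In wild type cultures it measured 4.28, 4.32 and 4.24 at day 0 and 5.47, 4.84 and 5.6 at day 4. The knockout values were 4.51, 4.27 and 4.15, then 5.3, 5.57 and 4.95. Both sets of arrays separated by day, and the spread widened at day 4, where the SD was 0.41 in wild type and 0.31 in knockout against 0.04 and 0.19 at day 0. The change was 1.02 ± 0.23 (SE, log2, 2.03-fold, limma adjusted p = 0.00299) in wild type and 0.96 ± 0.23 (1.95-fold, limma adjusted p = 0.00503) in knockout cultures. Mosaic arrays measured 4.52, 4.16 and 4.32 at day 0 and 5.6, 5.1 and 4.51 at day 4, so that replicate 3 of day 4 did not leave the day 0 range. The mosaic change was 0.74 ± 0.23 (limma adjusted p = 0.027). It was 1.02 (adjusted p = 0.00264) without day 4 replicate 3, and its call ended without day 0 replicate 2 (0.0985) or 3 (0.0644), without day 4 replicate 1 (0.47, adjusted p = 0.152) or 2 (0.0692), or in a fit on the mosaic arrays alone (0.0711).

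The spread of Dlx5 in the mosaic at day 4 ran beside that of pan-neuronal genes. The mean log2 signal of 8 neuron markers (such as Tubb3, Elavl3 and Syt1) on mosaic day 4 replicates 1, 2 and 3 was 8.15, 7.91 and 7.49. Replicate 1 was highest and replicate 3 lowest for this mean and for Dlx5, Gad2, Slc32a1 and Sp9. For Dlx2, Dlx6, Sp8 and Gad1 replicate 1 was highest and replicate 2 lowest. The order of the neuron marker mean was not particular to neurons: the oligodendrocyte marker mean was 9.53, 9.4 and 9.04 on these arrays. The astrocyte marker mean ran the other way (9.45, 9.84 and 9.89). In wild type cultures the neuron marker mean was 7.79, 7.85 and 7.86, in knockout cultures 8.22, 7.99 and 7.73, and at day 0 it was 6.94 to 7.09 on all arrays. In knockout cultures at day 4 only Gad1 and Slc32a1 of the 8 genes kept the order of that mean, while Dlx5 was highest on replicate 2 (5.57) and Gad2 on replicate 3 (5.48). In wild type cultures at day 4 Gad2 was highest on replicate 1 (5.6), where that mean was lowest. Dlx5 was lowest there on replicate 2 (4.84). The part of the neuron marker mean in the spread of Dlx5 was not tested.

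Dlx6, the partner of Dlx5, rose in wild type cultures and did not pass in the others, and the tests of that difference, given further on, did not pass over all genes. Wild type arrays measured 4.16, 4.59 and 4.53 at day 0 and 5.07, 5.14 and 5.04 at day 4. Knockout arrays measured 4.64, 4.66 and 4.67, then 4.4, 4.58 and 4.45. Mosaic arrays measured 4.4, 4.49 and 4.51, then 4.82, 4.55 and 4.73. All wild type and all mosaic arrays were higher at day 4 than at day 0, and all knockout arrays were lower. The change was 0.66 ± 0.1 (SE, log2, 1.58-fold, limma adjusted p = 0.000154) in wild type, -0.18 ± 0.1 (limma adjusted p = 0.236) in knockout and 0.23 ± 0.1 (limma adjusted p = 0.125) in mosaic cultures. The mosaic change was 0.31 and 0.22 without day 4 replicate 2 and 3. Wild type day 4 stood first in the ordering of the 6 group means, 0.38 above mosaic day 4 with no overlap.

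Dlx6os1, also called Evf2, is a noncoding RNA known to act with DLX proteins at the Dlx5 and Dlx6 enhancers. It has a probe set of its own and was chosen as a neighbour of Dlx6. On every array it lay below the lowest array median of 4.85. Its lowest values came near the 25th percentiles of the arrays (3.57 to 3.67). Its wild type arrays measured 3.68, 3.58 and 3.98 at day 0 and 4.66, 4.73 and 4.36 at day 4. Its knockout arrays measured 3.97, 4.19 and 3.76, then 3.87, 4.23 and 4.23. Its mosaic arrays measured 3.81, 4.23 and 3.88, then 4.26, 4.63 and 3.99. Wild type arrays separated by day, as those of Dlx6 did, while knockout and mosaic arrays overlapped, which those of Dlx6 did not. Dlx6os1 rose in wild type cultures by 0.84 ± 0.17 (SE, log2, 1.79-fold, limma adjusted p = 0.00143), and its changes in knockout and mosaic were 0.13 ± 0.17 and 0.32 ± 0.17 (limma adjusted p = 0.647 and 0.202). The mosaic change was 0.16 and 0.48 without day 4 replicate 2 and 3 (limma adjusted p = 0.612 and 0.0706). Since the genes overlap, whether the probe sets share RNA was not tested.

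Sp8 was the only one of the 8 genes with a negative estimate in all 3 genotypes. Wild type arrays measured 5.43, 5.79 and 6.28 at day 0 and 5.29, 5.43 and 5.69 at day 4. Knockout arrays measured 5.61, 6.02 and 6.42, then 4.76, 5.45 and 5.36. Mosaic arrays measured 5.51, 5.85 and 6.09, then 5.36, 5.16 and 5.18. The days overlapped in wild type but not in knockout or mosaic cultures, and at day 0 replicate 1 was lowest and replicate 3 highest in every genotype. The change was -0.83 ± 0.23 (SE, log2, limma adjusted p = 0.0131) in knockout, -0.59 ± 0.23 (limma adjusted p = 0.0772) in mosaic and -0.36 ± 0.23 (limma adjusted p = 0.245) in wild type cultures. The knockout call ended without day 0 replicate 3 (-0.63, adjusted p = 0.0745) or day 4 replicate 1 (-0.62, adjusted p = 0.0751). The mosaic change was -0.55 and -0.56 without day 4 replicate 2 and 3. It passed without day 0 replicate 1 (-0.74, adjusted p = 0.0487), in a fit on the mosaic arrays alone (0.0288) and with the replicate number as a block (0.0132).

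Sp9, above the median of its array on only 1 of 18 arrays, gave wide spreads. Wild type arrays measured 4.22, 4.25 and 3.97 at day 0 and 4.74, 4.23 and 4.51 at day 4. Knockout arrays measured 3.65, 4.36 and 4.03, then 5.11, 4.32 and 4.57. Mosaic arrays measured 4.43, 4.05 and 4.34, then 4.38, 4.34 and 4.18. The days overlapped in every genotype. The knockout change of 0.65 ± 0.2 (SE, log2, limma adjusted p = 0.0199) passed, while the wild type change of 0.35 ± 0.2 (limma adjusted p = 0.186) and the mosaic change of 0.02 ± 0.2 (limma adjusted p = 0.952; 0.01 and 0.09 without day 4 replicate 2 and 3) did not. The knockout call rested on single arrays: it ended without day 4 replicate 1 (0.43, adjusted p = 0.115) or day 0 replicate 1 (0.47, adjusted p = 0.114), and in a fit on the knockout arrays alone (0.0844).

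Gad1, which encodes GAD67, the enzyme behind most of the GABA of neurons, rose in wild type and knockout cultures. Wild type arrays measured 5.09, 5.04 and 5.27 at day 0 and 5.89, 5.89 and 5.83 at day 4, with no overlap. Knockout arrays measured 5.33, 5.06 and 5.4, then 5.83, 5.79 and 5.41. Mosaic arrays measured 5.53, 5.02 and 5.25, then 5.72, 5.35 and 5.55. The lowest knockout array of day 4 stood barely above the highest of day 0, and the mosaic days overlapped. The change was 0.73 ± 0.14 (SE, log2, 1.66-fold, limma adjusted p = 0.000792) in wild type, 0.41 ± 0.14 (limma adjusted p = 0.0387) in knockout and 0.28 ± 0.14 (limma adjusted p = 0.178) in mosaic cultures. The mosaic change was 0.37 and 0.27 without day 4 replicate 2 and 3. The knockout call ended without day 0 replicate 1 (adjusted p = 0.061) or 2 (0.171), without day 4 replicate 1 (0.141) or 2 (0.133), or in a fit on the knockout arrays alone (0.0779).

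Gad2, which encodes the synaptic enzyme GAD65, moved less. Wild type arrays measured 5.19, 4.97 and 5.05 at day 0 and 5.6, 5.27 and 5.45 at day 4. Knockout arrays measured 5.08, 4.86 and 5.0, then 5.43, 5.41 and 5.48. Mosaic arrays measured 5.15, 5.15 and 4.92, then 5.47, 5.19 and 4.8. Wild type and knockout arrays separated by day, and the mosaic arrays of day 4 spanned those of day 0. The change was 0.37 ± 0.14 (SE, log2, limma adjusted p = 0.0493) in wild type, 0.46 ± 0.14 (limma adjusted p = 0.0177) in knockout and 0.08 ± 0.14 (limma adjusted p = 0.745) in mosaic cultures. The wild type call was lost in 9 of 16 other settings: without day 0 replicate 1 (adjusted p = 0.0509), 2 (0.147) or 3 (0.108), without day 4 replicate 1 (0.184) or 3 (0.0955), and with a common array median (0.0598), no filter (0.0601), a variance trend (0.0578) or cyclic loess (0.117). The knockout call ended without day 0 replicate 2 (0.0747) or day 4 replicate 3 (0.0524), and the mosaic change was -0.08, 0.06 and 0.26 without day 4 replicate 1, 2 and 3.

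Slc32a1, the vesicular GABA transporter gene, passed in wild type cultures only, and differences between genotypes are tested further on. Wild type arrays measured 5.18, 4.79 and 4.83 at day 0 and 5.43, 5.25 and 5.4 at day 4. Knockout arrays measured 5.17, 4.81 and 5.01, then 5.29, 5.27 and 5.04. Mosaic arrays measured 4.91, 5.21 and 4.73, then 5.24, 5.22 and 5.0. The days separated in wild type cultures and overlapped in the others. The change was 0.43 ± 0.14 (SE, log2, limma adjusted p = 0.0238) in wild type and 0.21 ± 0.14 in both knockout and mosaic cultures (limma adjusted p = 0.311 and 0.312). The mosaic change was 0.17 and 0.28 without day 4 replicate 2 and 3. A second, dimmer probe set went from 4.82 to 4.86 in wild type, 4.98 to 4.7 in knockout and 4.87 to 4.73 in mosaic cultures. With the mean of both probe sets the wild type change was 0.24 (adjusted p = 0.06). The wild type call also ended without day 0 replicate 2 (0.0979) or 3 (0.0848), without day 4 replicate 1 (0.0766) or 3 (0.0628), and with cyclic loess (0.0838).

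**Figure D2:**
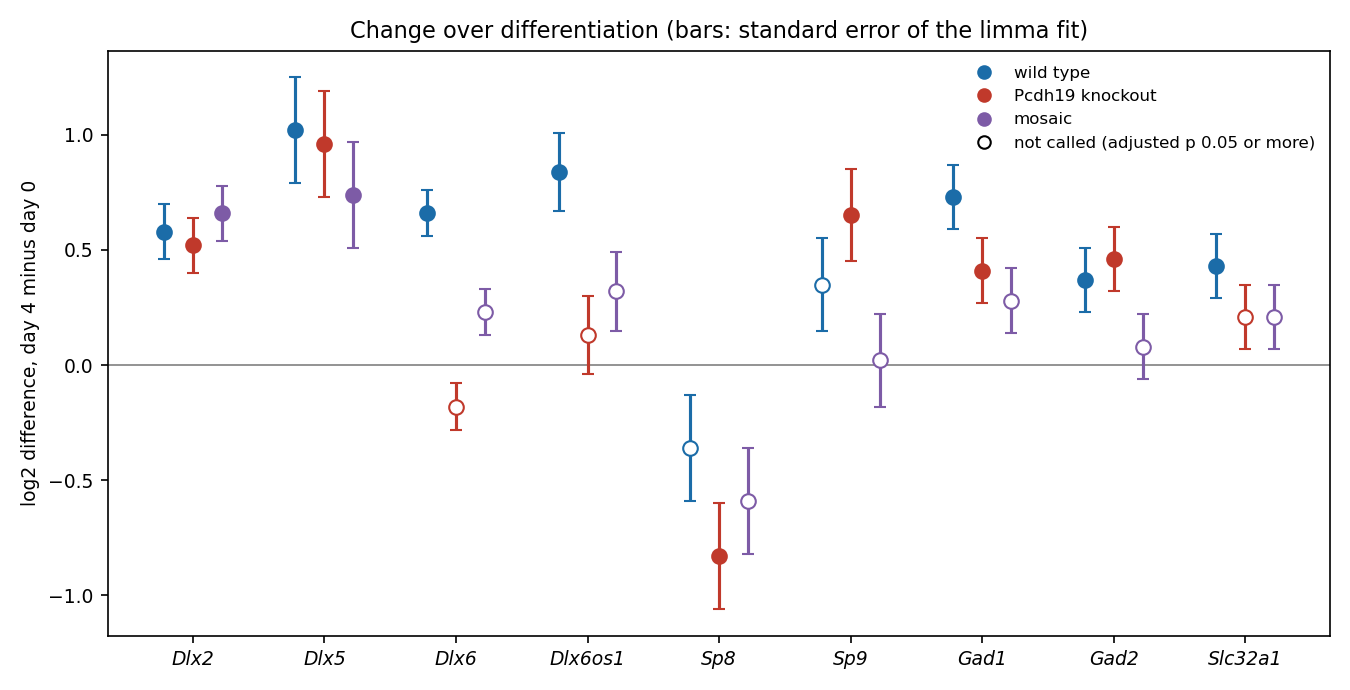
Log2 change from day 0 to day 4 of each gene and Dlx6os1 in wild type, knockout and mosaic cultures (3 arrays per group), with bars for the standard error of the limma fit and filled points for called genes. Dlx2 and Dlx5 were called in every genotype, Dlx6 had its highest estimate in wild type (0.66, against 0.23 in mosaic and -0.18 in knockout cultures), and the Sp8 estimates were all below 0.

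Wild type differentiation also moved dim genes as a class, and most of these genes are dim. Of the 8, 7 had a mean level of 4 to 6, as did 7523 genes in all, and Dlx2 had one of 6 to 8. Genes of the 4 to 6 class had a median change of 0.17 in wild type cultures, with 16.9% called higher and 6.31% lower. In knockout and mosaic cultures their medians were 0.02 and 0.01, with 7.5% and 6.65% called higher. In the 6 to 8 class the wild type median was -0.04. At day 4 the 4 to 6 class had a median difference from wild type of -0.1 in knockout and -0.11 in mosaic cultures. Its part in the results of the dim genes was not tested beyond cyclic loess normalization, which bends each array to the others by signal level and was added after seeing the data. With it 4 of the 6 wild type calls remained: Dlx2, Dlx5, Dlx6 and Gad1. Over all genes, wild type calls were split 3280 higher to 3106 lower as deposited, 4092 to 2556 after quantile normalization, 2651 to 3285 with a common array median and 2899 to 2961 with cyclic loess.

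**Figure D3:**
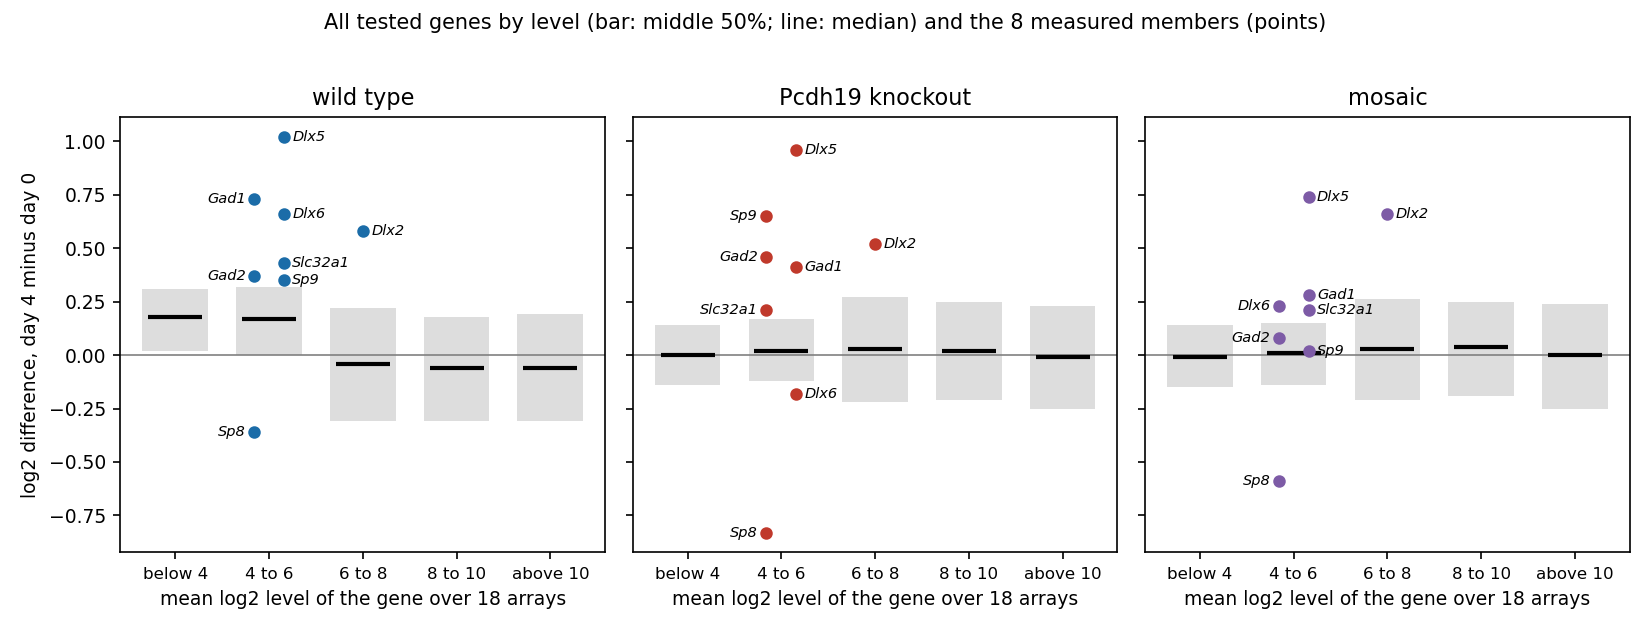
Log2 difference (day 4 minus day 0) of all tested genes in classes of mean log2 level, in 1 panel per genotype, with grey bars for the range that holds the middle genes between the quartiles, black lines for medians and points for the 8 genes described here. In wild type cultures the class from 4 to 6, which holds 7 of the 8 genes, had a median of 0.17, and the called genes Dlx5, Gad1 and Dlx6 lay well above it.

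The second question was whether genotype changed these genes within a day. At day 0 it did not detectably: 0 of 8 genes passed in limma in any of the 3 comparisons, 0% of the 19016 genes were called, and 686, 817 and 806 genes had an unadjusted p under 0.05 for knockout against wild type, mosaic against wild type and mosaic against knockout. The differences of the 8 genes ran from -0.13 to 0.23, from -0.01 to 0.13 and from -0.2 to 0.26. At day 4 again 0 of 8 and 0% of all genes passed in limma, with 2411, 3026 and 1155 genes at an unadjusted p under 0.05. Among the 8 genes 1, 2 and 1 were at that level. A miss at this threshold does not show that the groups were alike.

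Dlx6 had the lowest p of the 8 genes for knockout against wild type at day 4. At day 4 its 3 knockout arrays (4.4, 4.58 and 4.45) all lay below its 3 wild type arrays (5.07, 5.14 and 5.04). The difference was -0.61 ± 0.1 (SE, log2, 95% confidence interval -0.83 to -0.38), and the third lowest p of all genes, with a limma adjusted p of 0.154. Over all other settings the adjusted p was 0.0845 to 0.417 and the difference -0.66 to -0.5. At day 0 the order was the other way round, with knockout 0.23 higher (limma adjusted p = 1) and no overlap, as for 4.76% of all genes in that direction. The change over differentiation differed between knockout and wild type by -0.84 ± 0.15 (95% confidence interval -1.15 to -0.52, limma adjusted p = 0.233), the second lowest p of all genes. Its adjusted p was 0.137 to 0.439 over other settings and its value -0.92 to -0.7. At day 4, 8.27% of all genes had arrays that were all lower in knockout than in wild type.

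Dlx6os1 gave the same sign as Dlx6 with a smaller difference. At day 4 its knockout arrays (3.87, 4.23 and 4.23) lay below its wild type arrays (4.66, 4.73 and 4.36). The difference was -0.48 ± 0.17 (SE, log2, 95% confidence interval -0.85 to -0.11, limma adjusted p = 0.293). The change over differentiation differed from wild type by -0.71 ± 0.25 (limma adjusted p = 0.435). The other gene of the locus, Dlx5, did not separate: its day 4 difference was -0.03 ± 0.23 with a 95% confidence interval of -0.53 to 0.47 (limma adjusted p = 0.972). That interval still reaches most of the way to the Dlx6 difference.

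The remaining genes overlapped between knockout and wild type at day 4. Dlx2 differed by 0.02 (95% confidence interval -0.24 to 0.27) and Gad2 by 0 (-0.29 to 0.29). Gad1 differed by -0.19 (-0.49 to 0.11) and Slc32a1 by -0.16 (-0.45 to 0.13). For the zinc finger genes the intervals were wider, with Sp8 at -0.28 (-0.78 to 0.21) and Sp9 at 0.17 (-0.24 to 0.59). None of the differences in differentiation between knockout and wild type passed for these genes, and the Sp8 fall and Sp9 rise of the knockout differed from the wild type changes by -0.47 ± 0.33 and 0.3 ± 0.28 (limma adjusted p = 0.669 and 0.757).

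**Figure D4:**
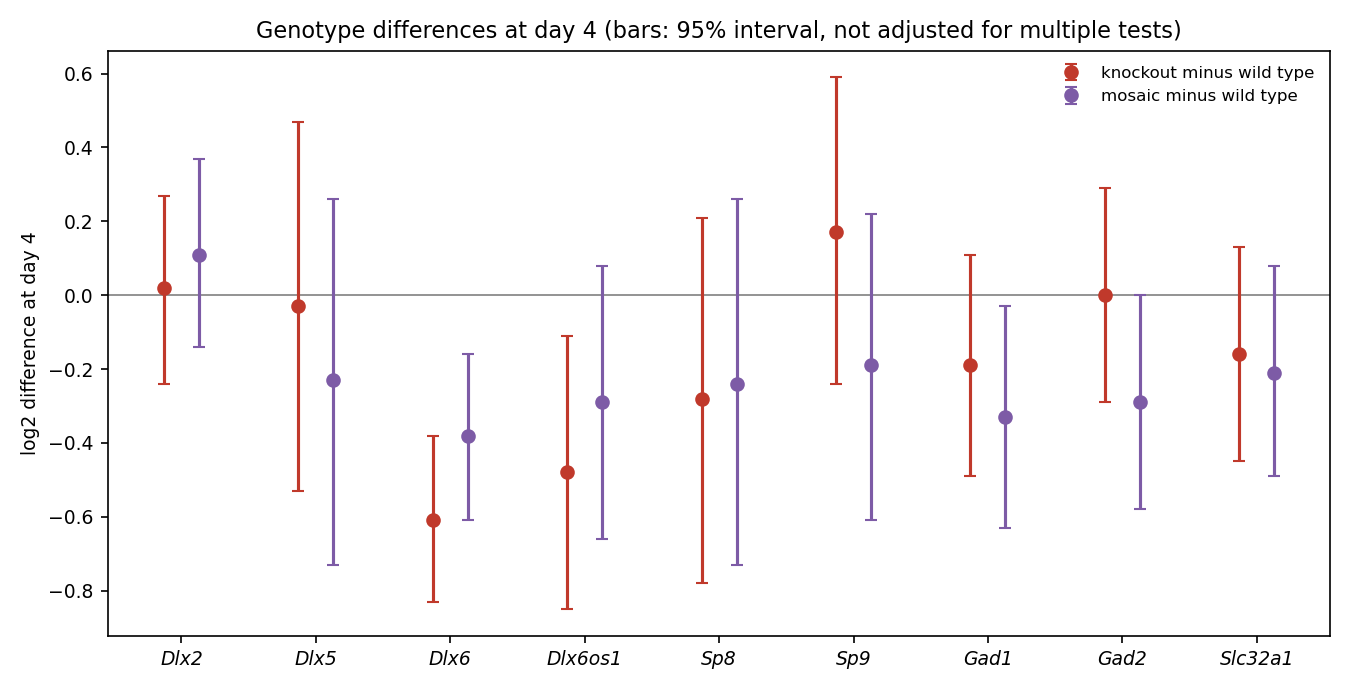
Log2 difference at day 4 of knockout and of mosaic cultures from wild type for each gene and Dlx6os1, with bars for the 95% confidence interval of the limma fit on 3 arrays per group. The unadjusted interval excluded 0 for Dlx6 in both comparisons, for Dlx6os1 in the knockout and for Gad1 in the mosaic, whereas 0 of the 8 genes passed after adjustment over all genes.

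Mosaic cultures at day 4 were compared with the same wild type arrays, so the comparisons are not independent. Of the 8 genes 7 had a lower mean in the mosaic, with a median difference of -0.24 against 0.01 over all genes and -0.11 in the dim class of 4 to 6. The quartiles of that class were -0.23 and 0.03, so most of its genes were lower in the mosaic too. Dlx6 differed by -0.38 ± 0.1 (SE, log2, 95% confidence interval -0.61 to -0.16, limma adjusted p = 0.157), with every mosaic array below every wild type array. The difference was -0.44, -0.31 and -0.4 without mosaic replicate 1, 2 and 3. Gad1 differed by -0.33 ± 0.14 (-0.63 to -0.03, limma adjusted p = 0.285), also with no overlap, and by -0.42, -0.23 and -0.33 without these arrays in turn. Slc32a1 was the third with no overlap, at -0.21 ± 0.14 (limma adjusted p = 0.465), and it differed by -0.25, -0.24 and -0.13 without mosaic replicate 1, 2 and 3. Of all genes, 8.55% had every mosaic array below every wild type array. Dlx2 was the exception, at 0.11 higher.

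In the change over differentiation the mosaic differed from wild type for Dlx6 by -0.42 ± 0.15 (SE, log2, limma adjusted p = 0.307) and for Gad1 by -0.46 ± 0.2 (limma adjusted p = 0.38). Neither passed over all genes. Without mosaic day 4 replicate 1, 2 and 3 the values were -0.48, -0.35 and -0.44 for Dlx6 and -0.55, -0.36 and -0.46 for Gad1. Between mosaic and knockout, the day 4 differences ran from -0.37 for Sp9 to 0.22 for Dlx6 (limma adjusted p = 0.815 and 0.797), and the changes over differentiation differed by 0.41 ± 0.15 for Dlx6 and -0.63 ± 0.28 for Sp9 (limma adjusted p = 0.999 for both). In these 3 tests of a difference between changes 0% of all genes passed, with 1809 (knockout against wild type), 2354 (mosaic against wild type) and 815 (mosaic against knockout) genes at an unadjusted p under 0.05.

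Several pairs of the genes correlated over the arrays, and most of the pairs named here did so less once the group means were taken out. Over the 18 arrays Pearson's r was 0.802 for Dlx2 with Dlx5, 0.816 for Dlx5 with Gad1, 0.83 for Dlx5 with Gad2 and 0.78 for Gad2 with Slc32a1. After subtracting each group's mean these became 0.171, 0.386, 0.701 and 0.654. Dlx5 and Dlx6, neighbours in the genome, had r = 0.442 and then 0.0177. Sp8 correlated negatively with most of the others, with r = -0.61 with Dlx2, -0.623 with Dlx5 and -0.583 with Slc32a1, and then 0.221, -0.0629 and -0.406. For Dlx6 with Sp8 the value rose from -0.000128 to 0.574. These values describe arrays that share a day and a culture, and they carry no test.

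Outside the set, the genes with the pattern most like each member were named by Pearson's r over the 18 arrays. Dlx2 was most like Pdgfa (0.959), Endod1 (0.955) and Cdh11 (0.946). Dlx5 was most like Ss18l1 (0.945), Prr12 (0.938) and Ina (0.938), the last a neuronal intermediate filament gene. Gad1 was most like Lrrc4b (0.907), Snap47 (0.904) and Wnt7a (0.903), and Gad2 like Sidt2 (0.887), Mia (0.882) and Snn (0.869). The leading likeness was lower for Dlx6 (Apoa1, 0.867), Sp8 (Col4a6, 0.878), Sp9 (Olfr735, 0.846) and Slc32a1 (Prdm4, 0.861). After subtracting each group's mean, r was 0.745 for Dlx2 with Pdgfa, 0.814 for Dlx5 with Ss18l1 and 0.623 for Gad1 with Lrrc4b. For Dlx6 with Apoa1 it was 0.666. Each gene was picked as the highest among the tested genes, so high values were bound to appear, and they carry no test.

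The wider interneuron program did not move as 1 block. Over all tested genes 17.2%, 15% and 14.4% were called higher and 16.3%, 12.4% and 11.9% lower in wild type, knockout and mosaic differentiation, with medians of 0.09, 0.02 and 0.02. Beyond the members, genes upstream of the DLX factors in the ventral forebrain gave few calls: of 6 tested out of 8 listed, 1 rose and 1 fell in wild type, and 0 rose and 1 fell in each of the other genotypes. Gsx2, which patterns the lateral ganglionic eminence, rose by 0.34 in wild type cultures (limma adjusted p = 0.044), a call lost in 5 of 6 fits that left out an array (adjusted p up to 0.163) and with cyclic loess (0.11). Its estimates were -0.26 and 0.03 in knockout and mosaic cultures. Otx2, a homeobox gene of the early forebrain, fell by 0.32 in wild type and 0.41 in mosaic cultures (limma adjusted p = 0.0348 and 0.00936), calls lost in 4 and 1 of 6 such fits (up to 0.168 and 0.0518). Vax1, a ventral homeobox gene, fell by 0.37 in knockout cultures (limma adjusted p = 0.0368), a call lost in 4 of 6 (up to 0.162). The other 3 transcripts of the Dlx family and its loci that could be tested, Dlx3, Dlx4 and Dlx6os1, gave 1 call, that of Dlx6os1 in wild type.

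Factors of postmitotic interneurons moved in both directions. Of 17 tested out of 21 listed, 2 rose and 6 fell in wild type, 3 and 6 in knockout, and 2 and 5 in mosaic cultures, with medians of -0.08, -0.04 and -0.11. Meis2, a homeobox gene of the lateral eminence and olfactory bulb, fell by 0.89, 0.77 and 0.82 in wild type, knockout and mosaic cultures (limma adjusted p = 4.43e-06, 2e-05 and 1.12e-05). Maf, a factor of medial eminence interneurons that other cells also make, fell by 0.89, 1.01 and 0.9 (limma adjusted p = 1.77e-05, 5.06e-06 and 1.54e-05). Prox1, found in caudal eminence interneurons and in oligodendrocyte precursors, fell by 0.68 and 0.5 in wild type and knockout cultures (limma adjusted p = 0.000288 and 0.00375) and gave -0.32 in the mosaic.

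Of 18 interneuron subtype genes, 6 rose and 1 fell in wild type, 3 rose and 0 fell in knockout, and 2 rose and 1 fell in mosaic cultures. Their medians were 0.26, -0.01 and 0.06, against 0.09, 0.02 and 0.02 over all genes and 0.17, 0.02 and 0.01 over genes of the 4 to 6 class. Calb2, which encodes calretinin, rose by 1.06 and 1.13 in wild type and knockout cultures (limma adjusted p = 0.00867 and 0.00641) and gave 0.72 in the mosaic. Reln, which encodes the secreted guidance protein reelin, rose by 0.81, 0.9 and 0.81 (limma adjusted p = 0.00131, 0.000571 and 0.00134). Cxcl14, a chemokine gene of caudal eminence interneurons, rose by 0.86, 0.8 and 0.96 (limma adjusted p = 0.000432, 0.00082 and 0.000168), while Ndnf fell by 0.69 in wild type cultures (limma adjusted p = 0.00141) and gave -0.39 and -0.3 in knockout and mosaic cultures (limma adjusted p = 0.0528 and 0.152). Between genotypes 0 of these 18 genes passed in limma at day 4.

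Genes that handle GABA after release, or set the chloride gradient its receptors use, gave the same counts in every genotype: of 8 tested out of 10 listed, 4 rose and 1 fell. Slc12a2, the chloride importer NKCC1 of immature neurons and of oligodendrocyte lineage cells, rose by 0.88, 0.99 and 1.23 in wild type, knockout and mosaic cultures (limma adjusted p = 2.04e-05, 5.61e-06 and 6.18e-07). Slc6a11, the GABA transporter GAT3 of astrocytes, rose by 0.64, 0.56 and 0.52 (limma adjusted p = 1.88e-05, 7.51e-05 and 0.000154). Abat, the enzyme that breaks down GABA, rose by 0.45, 0.42 and 0.57 (limma adjusted p = 0.000504, 0.000912 and 4.97e-05). Slc38a1, a glutamine carrier of GABAergic neurons and other cells, fell by 0.82, 0.58 and 0.61 (limma adjusted p = 1.21e-06, 4.33e-05 and 2.48e-05).

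Of 13 migration genes, 5 rose and 5 fell in wild type, 5 and 4 in knockout, and 3 and 3 in mosaic cultures. Dcx, the microtubule protein of migrating neuroblasts, rose by 1.74, 1.94 and 1.99 (limma adjusted p = 6.53e-06, 1.98e-06 and 1.57e-06). The receptor genes Nrp2 and Ackr3 fell, by 1.15, 0.72 and 0.63 and by 1.14, 1.04 and 0.8 in wild type, knockout and mosaic cultures, with limma adjusted p between 4.23e-06 and 0.00247.

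Genes of the glutamatergic lineage, the alternative fate in the forebrain, also gave calls in both directions. Of 14 tested out of 16 listed, 3 rose and 1 fell in wild type, 1 and 1 in knockout, and 2 and 2 in mosaic cultures, with medians of 0.24, 0.14 and -0.1, against 0.17, 0.02 and 0.01 over genes of the 4 to 6 class. Pax6, a factor of dorsal progenitors that also acts in olfactory bulb interneurons, fell by 0.67, 0.72 and 0.67 (limma adjusted p = 0.000365, 0.000192 and 0.000344). Neurod2 rose by 0.43, 0.55 and 0.45 (limma adjusted p = 0.0427, 0.0138 and 0.04). Those calls ended in 4, 2 and 5 of 6 fits that left out an array, with adjusted p up to 0.195, 0.0648 and 0.217. Emx1 and Slc17a7 also rose in wild type cultures, by 0.35 and 0.34 (limma adjusted p = 0.0414 and 0.0455), and each call ended in 5 of 6 such fits. With cyclic loess the wild type calls of Neurod2, Emx1 and Slc17a7 were all lost (limma adjusted p = 0.0985, 0.173 and 0.224).

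Markers of neurons and of other cell types were read over the same days, and many of them moved. The 7 oligodendrocyte markers tested all rose in every genotype, with a median change of 3.23, 3.25 and 3.55, and their mean level went from 5.49 to 6.03 at day 0 to 8.85 to 9.53 at day 4. Of 6 oligodendrocyte progenitor markers 5 rose in every genotype and 1 fell in knockout cultures, with Gpr17 up by 1.18, 1.57 and 1.54 (limma adjusted p = 0.000473, 3.26e-05 and 3.74e-05). Of 8 neuron markers 5 rose in every genotype, with 1, 0 and 1 falling in wild type, knockout and mosaic cultures. Of 6 astrocyte markers 4 rose and 2 fell, and of 6 neural stem markers 1 rose and 3 fell, in each genotype. Of the 5 endothelial markers 0 passed in limma in any genotype, while among 6 microglial markers Csf1r rose by 0.48 in wild type and P2ry12 fell by 0.39 in knockout cultures (limma adjusted p = 0.0112 and 0.0269, lost in 2 and 4 of 6 fits without an array, up to 0.0652 and 0.092). Of 5 fibroblast and pericyte markers tested, 2 rose in wild type and 1 in each of the other genotypes. Pdgfrb rose by 2.06, 2.29 and 2.11 in wild type, knockout and mosaic cultures (limma adjusted p = 3.34e-06, 1.06e-06 and 2.53e-06). Col1a2 rose by 0.54 in wild type (limma adjusted p = 0.000592) and gave -0.13 and 0.01 in knockout and mosaic cultures (limma adjusted p = 0.395 and 0.974). The mean levels of the microglial and endothelial markers were only 4.53 to 4.95 and 4.45 to 4.83, near or below the array medians. These levels do not show that such cells were present. Csf1r, P2ry12 and Col1a2 lay in the 4 to 6 class, whose wild type median change was 0.17. The part of changing cell proportions in the changes of the DLX and GABA genes was not tested.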

How the data were processed

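The authors deposited normalized values per probe set, which behave as log2 signals (0.722 to 13.97). How they were normalized, and to which log base, is not given in the sources used here. Of 41345 probe sets, 23521 carried 1 gene symbol in the platform annotation, 1814 several and 16010 none listed. Entrez identifiers matched a RefSeq table (GRCm38.p6) for 23328 and changed 0 symbols. The brightest probe set on average stood for each of 22180 genes. Genes above the 25th percentile of the array on at least 3 arrays were tested (19016).

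limma 3.58.1 (R 4.3.3, statmod 1.5.0) was fitted with 6 group means to all 18 arrays (12 residual and 4.36 prior degrees of freedom). The two-sided moderated tests of 12 contrasts were adjusted by Benjamini-Hochberg over all tested genes. The fit was tested on simulated data. The members, lists and tests were chosen with earlier results of these data known. Up to 4 genes were named per list, by their wild type change among called genes. The 3 most alike genes were sought per member, leaving out predicted genes and clone names. The number of arrays limits precision. Arrays of a group correlated at 0.981 to 0.986. Deviations of same-numbered arrays correlated at -0.146 to 0.165, and numbers were not taken as pairs in the main fit. Alternatives were 3 normalizations, 2 filters, averaging of probe sets, a replicate block, array weights, robust estimation with a variance trend, fits on the groups compared, and leaving out each array.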

Additional observations from a re-analysis of the deposited data

How the results depend on the processing

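Counts of called genes among the 8 stayed at 4 to 6 in wild type and 4 to 6 in knockout differentiation over settings that kept all arrays, and at 2 to 3 in the mosaic, and every comparison between genotypes stayed at 0. Leaving out 1 array gave 4 to 6 in wild type, 3 to 5 in knockout and 1 to 3 in mosaic cultures. Of 500 values of single genes under other settings (Dlx6os1 included), 461 kept direction and side of the threshold, 32 lost their call, 3 gained one and 4 changed sign. The 4 were Slc32a1 in knockout with the mean of its probe sets (-0.04), Sp9 in the mosaic without day 0 replicate 2 (-0.09) or day 4 replicate 1 (-0.02), and Gad2 in the mosaic without day 4 replicate 1 (-0.08), which gave up to 0.26 when another array was left out. Only results called in the main fit could lose a call, so the 32 losses are a larger share of those than of the 500. Many of the 461 were uncalled results that stayed uncalled. The calls of Dlx2 in all genotypes, of Dlx5 in wild type and knockout, and of Dlx6 and Gad1 in wild type held in all 16 settings tried for each. With the replicate number as a block (replicate block) the counts were 6, 6 and 3 in wild type, knockout and mosaic differentiation, the third in the mosaic being Sp8, and no other call of the 8 genes changed. Of 27 same-numbered pairs, 18 matched best with their own number and 4 correlated above 0.1, in 0 comparisons all of them. In the 3 differentiation comparisons every pair matched best with its own number, at r = 0.0153 to 0.164. A weak link by number between the days can therefore not be set aside there. The filter at the 50th percentile removed Sp9 and Dlx6os1. The cause of these changes was not tested. Each group held 3 arrays, and why 0 genes passed between genotypes was not tested.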
